A study of Homo sapiens with 6 samples.

Results

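The genes described here are the axon guidance families and their synaptic relatives: ephrins and Eph receptors, SLIT ligands and ROBO receptors, netrins and UNC5 receptors, semaphorins and plexins, and the FLRT, neurexin, neuroligin and SLITRK adhesion proteins. They were chosen by symbol alone, as every row of the count table whose name has one of these 12 family stems followed by its member number or letter. The rule found 84 genes among 28514 rows, of which 20830 had a count in any library. The study sequenced mRNA of CI-huVEC, endothelial cells of the human umbilical vein that were immortalised, and compared CCM3-knockout lines with wild-type lines. The knockout group held K17, K18 and K19, each a clonal line edited with CRISPR/Cas9 at exon 3 of CCM3, a gene whose official symbol is PDCD10. The wild-type group held WT 1, WT 2 and WT 4. All 6 samples were at passage 31 and share HKO as their clone label, which the labels do not explain. Each knockout line is 1 clone and the labels do not say how the wild-type lines were derived, so losing CCM3 and being a different line cannot be told apart. The p-values reflect the spread between these samples alone, which may be technical.

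Axon guidance ligands are secreted or membrane-bound proteins that attract or repel a growing nerve process through receptors on its tip, and blood vessels use many of the same pairs. In endothelium, ephrin-B2 and EphB4 mark arterial and venous cells, class 3 semaphorins act through plexins and neuropilins, and ROBO4 is an endothelial member of the ROBO family with a role in vessel stability. PDCD10 is mutated in familial cerebral cavernous malformations, in which clusters of dilated, leaky capillaries form. Neurexins, neuroligins, FLRTs and SLITRKs are best known as adhesion proteins of synapses.

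Total counts were between 28280417 and 32919491 per library, and 3 counts corresponded to 0.0903 to 0.108 CPM, the usual depth-scaled count unit, here with TMM factors. The targeted gene PDCD10 measured 42.3, 31.6 and 37.6 CPM in K17, K18 and K19, against 60.5, 60.7 and 61.6 CPM in WT 1, WT 2 and WT 4, lower in every clone, and it was called lower (log2 fold change -0.71, SE 0.11, edgeR adjusted p = 0.00374). A guide that disrupts an exon need not remove the transcript, and the RNA level is the measurement available here. The clones differed from each other far more than the wild-type libraries did: the biological coefficient of variation was 0.245 among clones and 0.0387 among wild-type lines. Endothelial markers were present in every library. Leaving out ROBO4, itself a guidance gene, 9 markers were tested, 7 higher in the clones and 0 lower. Of all tested genes, 18% were called higher and 20.8% lower. The 9 markers summed to 3989 to 4286 CPM in the clones and 2447 to 2530 CPM in wild type. Of 9 neuronal markers, STMN2, NEFL and ELAVL3 had at most 3 counts over all libraries, and the list summed to 32.8 to 93.7 CPM in the clones and 47.9 to 57.0 CPM in wild type. In these bulk samples, fewer cells of a type and less RNA per cell cannot be told apart.

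The promoter stretches of EFNB1, ROBO4, SLIT2 and SLIT3 are shown. They are called ephrin, ROBO and SLIT genes that differed in both directions and have only 1 start each in the RefSeq table. EFNB1 had the largest increase of the tested guidance genes (log2 fold change 2.73), and SLIT2 changed little (0.29). The called ephrin EFNA4 also has 1 start, and its stretch, which held a match to the letters marked below, is not shown. Each is the 250 bases before the transcription start, 5′ to 3′ on the gene's own strand, from RefSeq, build GRCh38.p14. Capitals mark CACCC or its reverse complement GGGTG, the core letters of the sites bound by KLF transcription factors, searched on both strands.
EFNB1, chrX:68828771-68829020, plus strand: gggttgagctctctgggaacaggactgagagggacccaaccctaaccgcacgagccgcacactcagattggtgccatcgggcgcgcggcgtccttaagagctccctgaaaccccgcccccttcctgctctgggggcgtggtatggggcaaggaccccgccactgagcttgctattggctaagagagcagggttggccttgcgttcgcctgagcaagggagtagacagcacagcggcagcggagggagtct
ROBO4, chr11:124897866-124898115, minus strand: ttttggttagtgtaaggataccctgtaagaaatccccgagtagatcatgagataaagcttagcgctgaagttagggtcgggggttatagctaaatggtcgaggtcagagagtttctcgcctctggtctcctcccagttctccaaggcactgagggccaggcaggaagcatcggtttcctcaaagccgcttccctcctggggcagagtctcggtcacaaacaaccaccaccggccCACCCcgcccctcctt
SLIT2, chr4:20251655-20251904, plus strand: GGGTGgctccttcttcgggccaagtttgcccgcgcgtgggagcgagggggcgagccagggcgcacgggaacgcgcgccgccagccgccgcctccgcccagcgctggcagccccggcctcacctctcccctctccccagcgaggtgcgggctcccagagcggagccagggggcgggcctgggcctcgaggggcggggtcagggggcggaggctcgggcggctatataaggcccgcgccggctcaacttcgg
SLIT3, chr5:169301140-169301389, minus strand: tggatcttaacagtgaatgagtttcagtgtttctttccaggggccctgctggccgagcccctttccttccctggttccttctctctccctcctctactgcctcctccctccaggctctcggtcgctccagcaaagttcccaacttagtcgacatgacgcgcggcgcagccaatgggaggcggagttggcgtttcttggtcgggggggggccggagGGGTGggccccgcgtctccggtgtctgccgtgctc
The EFNB1 stretch held no match, the ROBO4 stretch held 1 at 16 bases before the start, the SLIT3 stretch 1 at 35 bases and the SLIT2 stretch 1 at 250 bases. A match was present in 54.7% of all 35116 RefSeq promoters of this length, so it is a common feature of such windows. The start sites used in these cells were not measured.

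Of the 84 genes, 55 had enough counts to be tested for a difference, with the edgeR quasi-likelihood test on all genes together and calls at an adjusted p below 0.05. Among them 12 were higher in the clones, 16 were lower and 27 were not called. The called share was 50.9% of the tested guidance genes, beside 38.7% of all 14548 tested genes. By direction, 21.8% of the tested guidance genes were higher, beside 18% of all tested genes, and 29.1% were lower, beside 20.8%. The lower calls include 6 genes with no clone past the filter's minimum, which could be tested only because wild type passed. Among genes with a library of each group past that minimum, 10 of 49 guidance genes (20.4%) were lower, beside 19.6% of 14124 genes. In the same set 12 (24.5%) were higher, beside 17.5%. This set still holds SEMA3G, called lower, and SEMA3B, called higher, which needed the group with the higher level to be tested. The median log2 fold change was -0.06 over the tested guidance genes and 0.00 over all tested genes. The remaining 29 genes were not tested. Of these, 10 had no count in any library, among them EPHA3, EPHA7, EPHA8, NLGN4X, SLITRK1, SLITRK2, SLITRK3, SLITRK6 and UNC5D. A further 17 had at most 13 counts in any library: EFNA2, EPHA6, EPHA10, EPHB1, EPHB3, EPHB6, FLRT3, NRXN2, NTN1, NTN3, NTN5, SEMA3E, SEMA5A, SEMA5B, SLIT1, SLITRK5 and UNC5A. With no filter on low counts, 4 of these 17 were called by edgeR, EFNA2, EPHB1 and EPHB6 lower and NRXN2 higher, and DESeq2 called EPHB6 alone. EPHB6, a kinase-dead Eph receptor, had 0, 0 and 0 counts in K17, K18 and K19, against 13, 8 and 5 counts in WT 1, WT 2 and WT 4. The remaining 2 untested genes are Y-linked and are not described further.

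**Figure D1:**
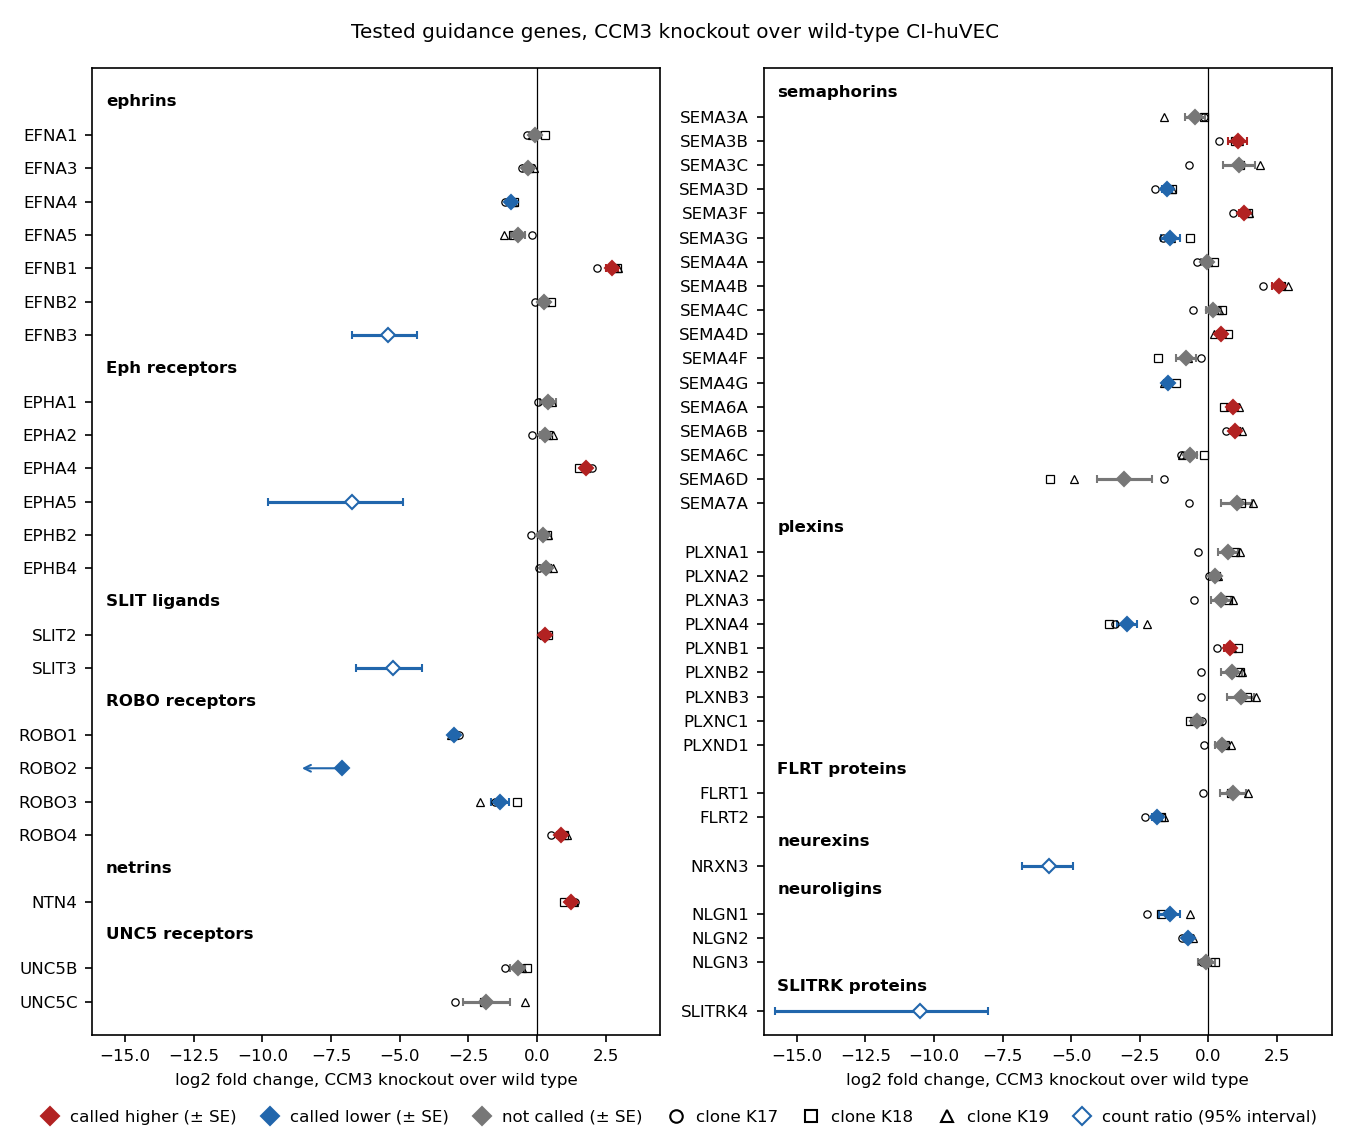
Log2 fold change, CCM3 knockout over wild type, of the 55 tested guidance genes by family; filled diamonds and bars are the edgeR estimate ± SE, small open symbols are single clones against the wild-type mean. For genes almost without counts in the clones, open diamonds give the ratio of counts with its 95% counting interval, and the ROBO2 arrow starts at the bound set by a floor of 3 counts; EFNB1 and SEMA4B lie farthest to the right, at 2.73 and 2.56.

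In 6 of the tested genes, EFNB3, EPHA5, NRXN3, ROBO2, SLIT3 and SLITRK4, only the wild-type libraries passed the minimum of 0.339 CPM. Such genes had to differ in order to be tested, and in 424 of all tested genes a whole group was below the minimum. Not every clone passed it in SEMA3G and UNC5C, nor every wild-type library in SEMA3B and EPHA1. These genes too needed the group with the higher level to be tested. The groups did not overlap in 36 genes. All clones were above all wild-type libraries for 13 genes (23.6%, beside 24.5% of all tested genes), and all clones were below all wild-type libraries for 23 genes (41.8%, beside 31%). Without genes in which a whole group was below the minimum, the clones were below for 17 of 49 guidance genes (34.7%, beside 30% of all such genes).

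Among ephrins, the membrane-bound ligands of Eph receptors, 7 of 8 were tested, 1 of them higher and 2 lower in the clones. Over all tested genes, 18% were higher and 20.8% lower. EFNB1, a transmembrane ephrin encoded on chromosome X, measured 86.5, 141 and 147 CPM in K17, K18 and K19, against 17.7, 21 and 17.8 CPM in WT 1, WT 2 and WT 4. Every clone stood well above every wild-type library, with K17 the lowest of the clones, and EFNB1 was 6.63-fold higher by mean CPM (log2 fold change 2.73, SE 0.22, edgeR adjusted p = 0.000387). EFNB3, another transmembrane ephrin, had 0, 4 and 3 counts in K17, K18 and K19, against 103, 119 and 112 counts in WT 1, WT 2 and WT 4. It was nearly absent from every clone, and the wild-type level over the clone level was 43.1 (95% counting interval 20.7 to 108), with an edgeR adjusted p of 0.000695. EFNA4, which is held in the membrane by a lipid anchor, measured 4.8, 6 and 5.84 CPM in K17, K18 and K19, against 10.4, 11.5 and 10.4 CPM in WT 1, WT 2 and WT 4. It was lower in all clones without overlap (log2 fold change -0.96, SE 0.13, edgeR adjusted p = 0.00243).

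The ephrins best known in endothelium were not called. EFNB2, the arterial ephrin, measured 36.1, 54.4 and 47 CPM in K17, K18 and K19, against 39.1, 37.4 and 38 CPM in WT 1, WT 2 and WT 4. K17 lay just below the wild-type libraries and the other clones above them, and the estimate was 0.26, 95% interval -0.09 to 0.62, edgeR adjusted p = 0.194. EFNA1, an inflammation-responsive ephrin of endothelium, measured 11.8, 18.6 and 13.3 CPM in K17, K18 and K19, against 16, 15.3 and 14.7 CPM in WT 1, WT 2 and WT 4. Its groups overlapped, with an estimate of -0.08, 95% interval -0.50 to 0.35, edgeR adjusted p = 0.752. EFNA3 averaged 1.5 CPM in the clones and 1.87 CPM in wild type, and EFNA5 averaged 11 CPM in the clones and 17.7 CPM in wild type with every clone below every wild-type library. EFNA1, EFNA3 and EFNA4 are neighbours on chromosome 1, and the annotation lists a transcript that shares exons with both EFNA3 and EFNA4, so their counts may not be fully separate.

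Of 14 Eph receptors, the tyrosine kinases that bind ephrins, 6 were tested. EPHA4, which binds ephrins of both classes, measured 53, 38.4 and 45.5 CPM in K17, K18 and K19, against 12.5, 12.6 and 14.2 CPM in WT 1, WT 2 and WT 4. All clones were above all wild-type libraries, 3.49-fold by mean CPM (log2 fold change 1.80, SE 0.14, edgeR adjusted p = 0.000274). EPHA5, a receptor known mainly from the nervous system, had 1, 1 and 0 counts in K17, K18 and K19, against 96, 69 and 71 counts in WT 1, WT 2 and WT 4. It was close to 0 in the clones and low in wild type, with a ratio of wild type to clones of 107 (95% counting interval 29.2 to 885) and an edgeR adjusted p of 0.000201. The annotation places EPHA5-AS1 on the opposite strand of EPHA5, so its few counts may include that gene.

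The more abundant Eph receptors were not called. By length-normalised level, EPHA2, EPHB2 and EPHB4 stood first among Eph receptors in both groups: EPHA2 averaged 40.01 ± 9.34 FPKM in the clones and 33.7 ± 3.12 FPKM in wild type. EPHA2, a receptor for ephrin-A ligands with roles in angiogenesis, measured 146, 218 and 245 CPM in K17, K18 and K19, against 173, 175 and 147 CPM in WT 1, WT 2 and WT 4. EPHB4, the venous partner of ephrin-B2, measured 112, 138 and 160.1 CPM in K17, K18 and K19, against 112, 112 and 99.5 CPM in WT 1, WT 2 and WT 4. For EPHA2 the clone K17 was just below every wild-type library and K18 and K19 were above (estimate 0.30, 95% interval -0.16 to 0.76, edgeR adjusted p = 0.247), while EPHB4 was higher in every clone, in K17 only just (estimate 0.34, 95% interval 0.02 to 0.67, edgeR adjusted p = 0.0847). EPHB2 averaged 157 CPM in the clones and 136 CPM in wild type and EPHA1 averaged 0.443 CPM in the clones and 0.332 CPM in wild type, both with overlapping groups.

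**Figure D2:**
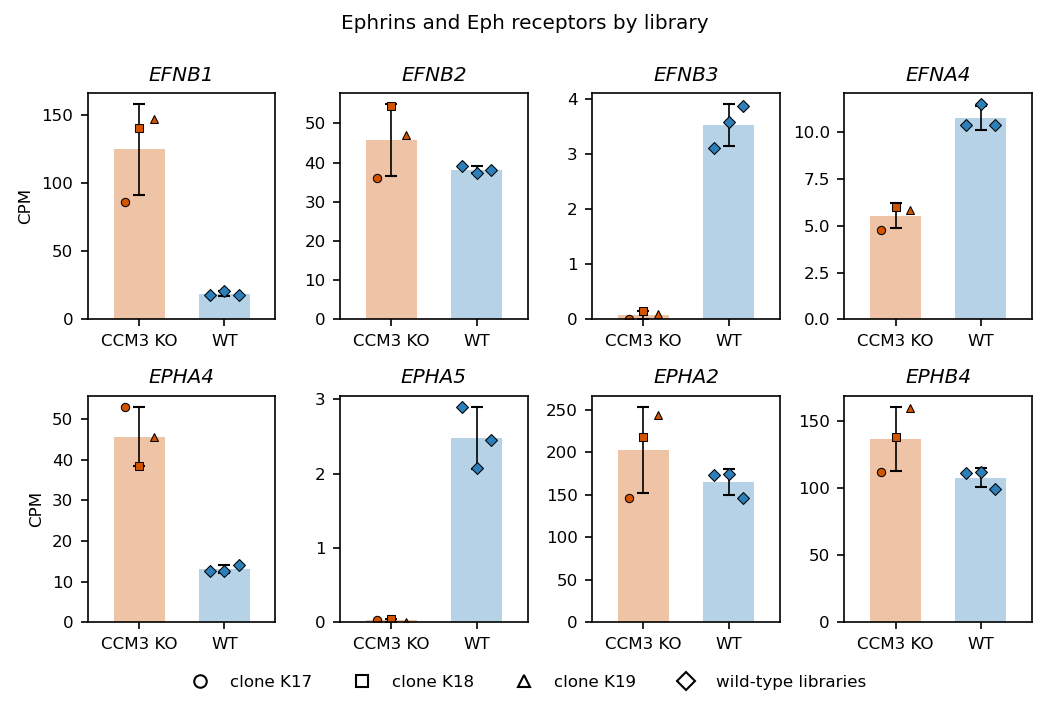
CPM of 4 ephrins and 4 Eph receptors in the 6 libraries; bars are group means, error bars ± SD over 3 libraries, and points are single libraries, with CCM3 knockout left of wild type. EFNB1 and EPHA4 are higher in every clone, EFNB3 and EPHA5 are near 0 in every clone, and for EPHA2 the clone K17 lies below the wild-type libraries.

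All 4 ROBO receptors and 2 of 3 SLIT ligands were tested, and each was called, beside 38.7% of all tested genes. ROBO2 and SLIT3 passed the filter through wild type alone and so had to differ to be tested. ROBO1, ROBO2 and ROBO3 were lower in the clones, while ROBO4 was higher. ROBO1, the main SLIT receptor in many tissues, measured 7.25, 6.5 and 5.88 CPM in K17, K18 and K19, against 51.1, 51.3 and 56.5 CPM in WT 1, WT 2 and WT 4. The clones lay close together and far below the wild-type libraries, 8.09-fold lower by mean CPM (log2 fold change -3.02, SE 0.11, edgeR adjusted p = 2.3e-05). ROBO2, the neighbour of ROBO1 on chromosome 3, had 0, 0 and 0 counts in K17, K18 and K19, against 167, 128 and 165 counts in WT 1, WT 2 and WT 4. With no count in any clone and 3 counts over the group taken as the floor, ROBO2 was at least 138-fold lower, with an edgeR adjusted p of 0.000452. ROBO3, a divergent receptor known from commissural axons, measured 4.73, 8.28 and 3.22 CPM in K17, K18 and K19, against 13.6, 15.2 and 12.7 CPM in WT 1, WT 2 and WT 4. It was lower in every clone, with K18 nearest to wild type (log2 fold change -1.36, SE 0.33, edgeR adjusted p = 0.0211), and without WT 1, WT 2 or WT 4 the adjusted p was 0.0669, 0.0722 and 0.0614.

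ROBO4, which adjoins ROBO3 on chromosome 11, measured 514, 726 and 766 CPM in K17, K18 and K19, against 381, 376 and 331 CPM in WT 1, WT 2 and WT 4. It was higher in every clone, with K17 nearest to wild type (log2 fold change 0.88, SE 0.16, edgeR adjusted p = 0.00665). By length-normalised level ROBO4 stood first of all 82 described guidance genes in both groups, with 136 ± 25.2 FPKM in the clones and 76.5 ± 5.48 FPKM in wild type. Of the summed FPKM of the ROBO receptors, ROBO4 made up 98.5% to 99.3% in the clones and 88.7% to 90.5% in wild type, and ROBO1 made up 0.389% to 0.710% in the clones and 6.20% to 7.73% in wild type. Exons of ROBO4 overlap non-coding genes on the opposite strand in the GENCODE annotation, and the sources used here do not say whether counting used strand.

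SLIT2, a secreted ROBO ligand, measured 110.1, 132 and 119 CPM in K17, K18 and K19, against 99.9, 98.8 and 98.1 CPM in WT 1, WT 2 and WT 4. The difference was small and without overlap, 1.22-fold by mean CPM (log2 fold change 0.29, SE 0.08, edgeR adjusted p = 0.0266). Without WT 1, WT 2 or WT 4 the adjusted p for SLIT2 was 0.0924, 0.0931 and 0.104, and the call was also lost with limma on log2 of FPKM plus 1 or 0.1. SLIT3, the other measured ligand, had 2, 0 and 5 counts in K17, K18 and K19, against 106, 103 and 86 counts in WT 1, WT 2 and WT 4. It was nearly absent from the clones, with a ratio of wild type to clones of 38.1 (95% counting interval 18.2 to 95.5) and an edgeR adjusted p of 0.000909. SLIT2 and ROBO4 thus rose in the same clones in which SLIT3, ROBO1, ROBO2 and ROBO3 fell.

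**Figure D3:**
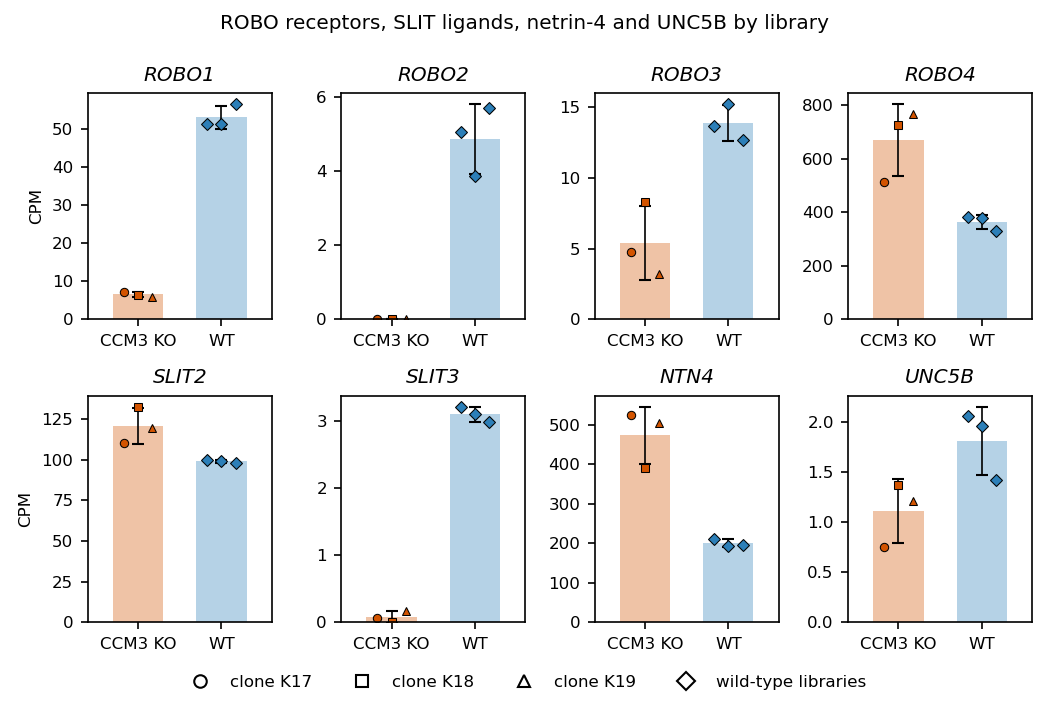
CPM of the 4 ROBO receptors, SLIT2, SLIT3, NTN4 and UNC5B in the 6 libraries; bars are group means, error bars ± SD over 3 libraries, and points are single libraries, with CCM3 knockout left of wild type. ROBO4, SLIT2 and NTN4 are higher in every clone, and the other genes shown are lower in every clone, ROBO2 with no count in any of them.

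Of 4 netrins, laminin-related guidance proteins, NTN4 alone was tested. NTN4, a netrin of basement membranes, measured 525, 392 and 506 CPM in K17, K18 and K19, against 212, 193 and 196 CPM in WT 1, WT 2 and WT 4. Every clone was above every wild-type library, 2.37-fold by mean CPM (log2 fold change 1.24, SE 0.12, edgeR adjusted p = 0.00069). By length-normalised level NTN4 averaged 103 ± 16.3 FPKM in the clones and 44.8 ± 1.79 FPKM in wild type, rank 2 of the guidance genes in the clones and rank 3 in wild type. Both tested UNC5 receptors, which bind netrins, were not called. UNC5B, the family member described in endothelium, measured 0.749, 1.37 and 1.21 CPM in K17, K18 and K19, against 2.06, 1.96 and 1.42 CPM in WT 1, WT 2 and WT 4. Every clone was below every wild-type library (estimate -0.71, 95% interval -1.38 to -0.04, edgeR adjusted p = 0.0861). UNC5C averaged 0.197 CPM in the clones and 0.726 CPM in wild type, its groups overlapped, and it was called lower only without K19 (adjusted p = 0.0287).

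Of 20 semaphorins, 17 were tested, 6 of them higher, 3 lower and 8 not called. These counts stand beside 18% higher and 20.8% lower of all tested genes. SEMA4B, a transmembrane semaphorin, measured 53.9, 84.8 and 99.9 CPM in K17, K18 and K19, against 14.8, 13.2 and 12.5 CPM in WT 1, WT 2 and WT 4. All clones were far above wild type, 5.91-fold by mean CPM (log2 fold change 2.56, SE 0.24, edgeR adjusted p = 0.000606). SEMA3F, a secreted ligand of neuropilin-2 that repels endothelial cells, measured 345, 510.2 and 521 CPM in K17, K18 and K19, against 198, 194 and 172 CPM in WT 1, WT 2 and WT 4. It was higher in every clone, with K17 the lowest of them (log2 fold change 1.29, SE 0.17, edgeR adjusted p = 0.00213), and SEMA3F-AS1 overlaps it on the opposite strand. SEMA6B, a transmembrane ligand of A-type plexins, measured 57.8, 74.3 and 87.5 CPM in K17, K18 and K19, against 38.8, 39.9 and 33.1 CPM in WT 1, WT 2 and WT 4. The clones again did not overlap wild type (log2 fold change 0.97, SE 0.16, edgeR adjusted p = 0.00544). SEMA6A, its relative, measured 2.69, 2.28 and 3.35 CPM in K17, K18 and K19, against 1.51, 1.47 and 1.52 CPM in WT 1, WT 2 and WT 4, higher in every clone (log2 fold change 0.88, SE 0.19, edgeR adjusted p = 0.0129). SEMA4D, the ligand of PLXNB1, measured 15.4, 17.9 and 12.6 CPM in K17, K18 and K19, against 10.1, 11.9 and 11 CPM in WT 1, WT 2 and WT 4. It was just past the threshold and no clone overlapped wild type (log2 fold change 0.47, SE 0.15, edgeR adjusted p = 0.0497). SEMA3B, a secreted semaphorin, was as close to the threshold at a very low level, with 0.56 CPM in the clones and 0.266 CPM in wild type and an edgeR adjusted p of 0.0496. The calls of SEMA6A, SEMA4D and SEMA3B were lost without WT 1, WT 2 or WT 4, those of SEMA4D and SEMA3B also without K18, and that of SEMA3B also without K19. SEMA3B also missed the threshold with library totals, no filter, DESeq2, limma-voom and limma on FPKM, and SEMA4D with upper-quartile factors, library totals, no filter, limma-voom and limma on FPKM. Without WT 1 the adjusted p was 0.059 for SEMA6A, 0.165 for SEMA4D and 0.162 for SEMA3B.

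SEMA3D, a secreted semaphorin that acts on endothelial cells, measured 11.4, 17.5 and 17.8 CPM in K17, K18 and K19, against 46.6, 41.4 and 45 CPM in WT 1, WT 2 and WT 4. Every clone was below every wild-type library (log2 fold change -1.51, SE 0.18, edgeR adjusted p = 0.00163). SEMA4G, a transmembrane semaphorin, measured 3.37, 4.44 and 3.28 CPM in K17, K18 and K19, against 10.04, 11 and 9.79 CPM in WT 1, WT 2 and WT 4. It was lower in all clones (log2 fold change -1.48, SE 0.16, edgeR adjusted p = 0.000974), and its exons overlap MRPL43 on the opposite strand. SEMA3G, an arterial endothelial semaphorin, was low in all libraries and measured 0.204, 0.506 and 0.277 CPM in K17, K18 and K19, against 0.877, 0.782 and 0.934 CPM in WT 1, WT 2 and WT 4. No clone reached the wild-type level (log2 fold change -1.39, SE 0.34, edgeR adjusted p = 0.0198). The SEMA3G call was lost without K19 (adjusted p = 0.0597) and without WT 1, WT 2 or WT 4 (0.0727, 0.0569 and 0.0768).

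Among the 8 semaphorins not called, SEMA3A, the founding class 3 ligand, measured 11.5, 11.7 and 4.18 CPM in K17, K18 and K19, against 12.5, 13.1 and 13.2 CPM in WT 1, WT 2 and WT 4. K19 was the lowest clone, and K17 and K18 lay just under wild type (estimate -0.50, 95% interval -1.39 to 0.39, edgeR adjusted p = 0.306). SEMA6D averaged 1.33 ± 1.98 CPM in the clones and 11.3 ± 0.718 CPM in the wild-type lines, with all clones lower but far apart from each other (estimate -3.07, 95% interval -5.49 to -0.64, edgeR adjusted p = 0.0528). SEMA4F and SEMA6C were also lower in every clone, averaging 3.42 CPM in the clones and 6.07 CPM in wild type for SEMA4F and 10.3 CPM in the clones and 16.3 CPM in wild type for SEMA6C, which was called without K18 (adjusted p = 0.00214). SEMA3C, SEMA4A, SEMA4C and SEMA7A had overlapping groups, with estimates of 1.12, -0.06, 0.17 and 1.02. SEMA3A, SEMA3D and the barely counted SEMA3E are neighbours on chromosome 7.

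All 9 plexins, the main semaphorin receptors, were tested: 1 was higher, 1 was lower and 7 were not called. Of all tested genes, 18% were higher and 20.8% lower. PLXNB1, the receptor of SEMA4D, measured 37.5, 63.4 and 55.4 CPM in K17, K18 and K19, against 29.7, 32.8 and 28.8 CPM in WT 1, WT 2 and WT 4. Every clone was higher, with K17 nearest to wild type (log2 fold change 0.77, SE 0.19, edgeR adjusted p = 0.0222). The PLXNB1 call was lost without K19 (adjusted p = 0.0568) and without WT 1, WT 2 or WT 4 (0.0823, 0.06 and 0.087). PLXNA4, a receptor of class 3 and class 6 semaphorins, measured 5.01, 4.3 and 11.5 CPM in K17, K18 and K19, against 57.4, 53 and 52.7 CPM in WT 1, WT 2 and WT 4. All clones were far below wild type, 7.83-fold lower by mean CPM (log2 fold change -2.97, SE 0.38, edgeR adjusted p = 0.002).

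In 5 of the 7 uncalled plexins K17 lay below every wild-type library while K18 and K19 lay above. PLXND1, a plexin of developing endothelium, measured 373, 627 and 735 CPM in K17, K18 and K19, against 432, 424 and 386 CPM in WT 1, WT 2 and WT 4. K17 was below all wild-type libraries, and K18 and K19 were above them (estimate 0.48, 95% interval -0.09 to 1.05, edgeR adjusted p = 0.145). The same order was seen in PLXNA1, PLXNA3, PLXNB2 and PLXNB3. Over all families, K18 and K19 were above every wild-type library, with K17 not above them, in 14 of the 55 tested guidance genes and in 13.7% of all tested genes. This order held in 6 of the 9 plexins. In 11 guidance genes K17 was moreover below every wild-type library, which was so in 6.97% of all tested genes. PLXNC1 averaged 1.62 CPM in the clones and 2.19 CPM in wild type, lower in every clone and not called.

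**Figure D4:**
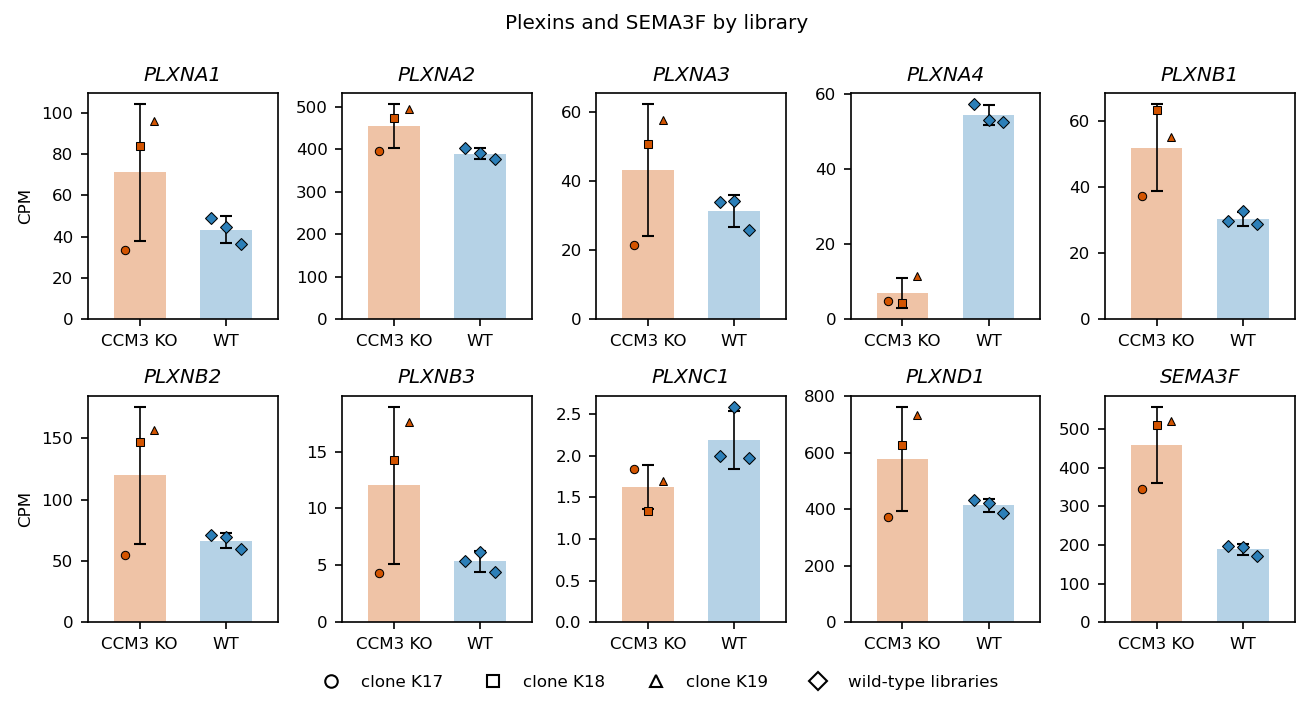
CPM of the 9 plexins and SEMA3F in the 6 libraries; bars are group means, error bars ± SD over 3 libraries, and points are single libraries, with CCM3 knockout left of wild type. K17 lies below the wild-type libraries for PLXNA1, PLXNA3, PLXNB2, PLXNB3 and PLXND1, where K18 and K19 lie above them; PLXNA4 is lower in every clone.

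With K17 left out, 26 guidance genes (47.3%) were called higher, beside 32.2% of all tested genes, and 19 (34.5%) lower, beside 30.3%. The lower calls again include the 6 genes with no clone past the filter's minimum. None of the 28 calls was lost. Of the 17 genes gained, EFNA5, SEMA4F and SEMA6D were lower, and the others, higher, were EFNB2, EPHA2, EPHB2, EPHB4, FLRT1, SEMA3C, SEMA4C, SEMA7A and 6 plexins, PLXNA1, PLXNA2, PLXNA3, PLXNB2, PLXNB3 and PLXND1. Without K17 the log2 fold change of PLXND1 was 0.73 with an edgeR adjusted p of 0.000109, and that of EPHA2 was 0.49 with an adjusted p of 0.00145.

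The libraries also differed in how counts depended on GC content. In the tenth of genes richest in GC, the trend on the log2 scale was -0.28 in K17, 0.54 in K18 and 0.53 in K19, against -0.23, -0.17 and -0.40 in WT 1, WT 2 and WT 4. Median transcript GC content was 57.7% for the tested guidance genes and 49.6% for all tested genes with a value. With each library's GC trend removed, 10 guidance genes (18.2%) were called higher, beside 21.9% of all tested genes, and 20 (36.4%) lower, beside 17%. These lower calls also include the 6 genes with no clone past the filter's minimum. The GC-corrected fit called 2909 higher and 2254 lower of the 13290 genes with a GC value. Without the correction, 2612 were higher and 3025 lower of 14548 genes. NLGN1, SEMA3B and SEMA4D lost their calls, and EFNA3, EFNA5, SEMA6C, SEMA6D and UNC5B were then called lower. ROBO4 kept its call at a smaller size (0.46, edgeR adjusted p = 0.000659), as did SEMA6B (0.41, edgeR adjusted p = 0.0303) and PLXNB1 (0.44, edgeR adjusted p = 0.00798). EFNB1 stood at 2.37, edgeR adjusted p = 7.3e-06, SEMA4B at 2.14, edgeR adjusted p = 1.5e-05, EPHA4 at 1.90, edgeR adjusted p = 1.3e-05 and ROBO1 at -2.89, edgeR adjusted p = 1.5e-06. EPHA2, EPHB2, EPHB4 and SEMA4C, none of them called, changed sign, to -0.16, -0.02, -0.05 and -0.21. Among plexins in which K17 parted from the other clones, PLXND1 stood at 0.22, against 0.48 without the correction, PLXNA1 at 0.29, against 0.71, PLXNA3 at 0.08, against 0.46, PLXNB2 at 0.30, against 0.85, and PLXNB3 at 0.63, against 1.17. PLXNA2, in which K17 lay among the wild-type libraries and K18 and K19 above them, stood at 0.18, against 0.22.

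**Figure D5:**
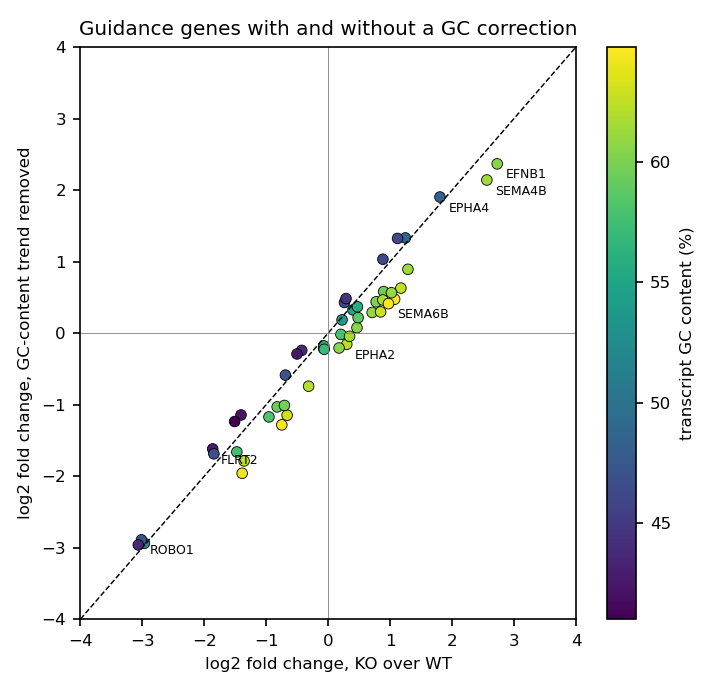
Log2 fold change, CCM3 knockout over wild type, of the tested guidance genes with values within 4 of 0, as fitted (horizontal axis) and with each library's GC-content trend removed (vertical axis); colour is transcript GC content and the dashed line marks equal values. GC-rich genes lie below the line, such as SEMA6B at 0.97 and 0.41, and EFNB1, SEMA4B, EPHA4, ROBO1 and FLRT2 keep their direction.

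Of 18 described FLRT, neurexin, neuroligin and SLITRK genes, 7 were tested, 5 of them lower, 0 higher and 2 not called, beside 20.8% lower and 18% higher of all tested genes. Of the 5, NRXN3 and SLITRK4 passed the filter through wild type alone. FLRT2, which binds UNC5 receptors and latrophilins, measured 27.1, 40.3 and 43.7 CPM in K17, K18 and K19, against 142, 126 and 137 CPM in WT 1, WT 2 and WT 4. It was lower in every clone, 3.64-fold lower by mean CPM (log2 fold change -1.87, SE 0.18, edgeR adjusted p = 0.000733), and by FPKM it had rank 21 of the guidance genes in the clones and rank 10 in wild type. FLRT1 was not called, averaging 1.21 CPM in the clones and 0.649 CPM in wild type. NLGN1, a postsynaptic neurexin partner, measured 6.88, 9.65 and 20.4 CPM in K17, K18 and K19, against 31.5, 31.3 and 35.2 CPM in WT 1, WT 2 and WT 4. The clones ranged widely, all below wild type (log2 fold change -1.41, SE 0.38, edgeR adjusted p = 0.0298), and the call was lost without K18 (adjusted p = 0.0902) and without WT 1, WT 2 or WT 4 (0.082, 0.0772 and 0.0946). NLGN2, the neuroligin of inhibitory synapses, measured 21, 24.3 and 27.5 CPM in K17, K18 and K19, against 40.8, 43.5 and 38.1 CPM in WT 1, WT 2 and WT 4, lower in every clone (log2 fold change -0.75, SE 0.12, edgeR adjusted p = 0.00373), and NLGN3 was not called, averaging 0.409 CPM in the clones and 0.427 CPM in wild type.

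NRXN3, a neurexin, and SLITRK4, a transmembrane protein that shapes neurites, had few counts in the clones. NRXN3 had 6, 1 and 4 counts in K17, K18 and K19, against 254, 230 and 195 counts in WT 1, WT 2 and WT 4. Its ratio of wild type to clones was 55.7 (95% counting interval 31 to 112), with an edgeR adjusted p of 0.000153. SLITRK4, encoded on chromosome X, had 0, 0 and 1 counts in K17, K18 and K19, against 537, 517 and 545 counts in WT 1, WT 2 and WT 4. With 1 count in the clones, its ratio was 1444 (95% counting interval 259 to 57059), with an edgeR adjusted p of 3.3e-05.

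The partners and effectors of these families were described from lists set by function. Of 8 tested neuropilins and other guidance receptors, 1 was higher (12.5%, beside 18% of all tested genes) and 4 were lower (50%, beside 20.8%), with a median log2 fold change of -0.78. NRP1, the neuropilin co-receptor of class 3 semaphorins, measured 260.1, 104 and 138 CPM in K17, K18 and K19, against 377, 359 and 366 CPM in WT 1, WT 2 and WT 4. It was lower in every clone, with K17 nearest to wild type (log2 fold change -1.13, SE 0.32, edgeR adjusted p = 0.0345), and the call was lost without K18 or K19 (adjusted p = 0.0669 and 0.111) and without WT 1, WT 2 or WT 4 (0.0979, 0.0873 and 0.0969). NRP2, the receptor of SEMA3F, averaged 155 CPM in the clones and 175 CPM in wild type and was not called. DCC, the netrin receptor, had 1 count over all libraries, and its relative NEO1 was below 1 CPM in every library and not called. ALCAM, an adhesion receptor of growing axons, was lower at 143 CPM in the clones and 298 CPM in wild type (edgeR adjusted p = 0.000542). PTK7, a receptor of planar polarity signalling, was close to 0 in the clones, with 0.0927 CPM in the clones and 66.2 CPM in wild type (edgeR adjusted p = 3.1e-06). No clone passed the filter's minimum of 0.339 CPM for PTK7, so this lower call comes from a gene that had to differ to be tested. MET, which associates with B-type plexins, was higher at 164 CPM in the clones and 125 CPM in wild type (edgeR adjusted p = 0.0246), a call lost without K19 (0.0567) and without WT 1, WT 2 or WT 4 (0.0882, 0.0888 and 0.0817).

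The counts in the lists that follow stand beside 18% higher and 20.8% lower of all tested genes. Of 20 tested plexin and semaphorin effectors, 6 were higher (30%) and 4 lower (20%). CRMP1 and DPYSL2, collapsin response mediators, were higher (log2 fold changes 1.12 and 0.96), while the related DPYSL3 and the actin oxidase MICAL2 were lower (-0.99 and -1.59). Of 19 tested Eph and ephrin effectors, 5 were higher (26.3%) and 5 lower (26.3%): NGEF and ARHGEF15, exchange factors of the ephexin family, were higher (3.39 and 0.71), and ITSN1 and ACP1 were lower (-0.81 and -0.33). Of 15 tested Robo and Slit effectors, 3 were higher (20%) and 6 lower (40%), with SRGAP1 and CAP1 higher (0.68 and 0.21) and CAP2 and DOCK1 lower (-3.56 and -0.45). Of 13 tested netrin and UNC5 effectors, 5 were higher (38.5%) and 3 lower (23.1%), with ABLIM3 and ABLIM1 higher (1.35 and 0.62) and PAK1 and MAGED1 lower (-4.36 and -0.73). Of 15 tested synaptic partners, 3 were higher (20%) and 8 lower (53.3%), with MDGA1 and LPHN2 higher (2.71 and 0.81) and PTPRD and IL1RAPL1 lower (-3.83 and -3.10). The median log2 fold changes of these lists, in the same order, were 0.13, -0.10, 0.04, 0.09 and -0.59, beside 0.00 over all tested genes. The CAP1 call was lost without WT 1, WT 2 or WT 4 (edgeR adjusted p = 0.121, 0.134 and 0.118).

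Markers of other cell types moved between the groups as well, and their part in these results was not tested. Their counts stand beside 18% higher and 20.8% lower of all tested genes. Of 4 tested neuronal markers, MAP2 alone was called, lower (log2 fold change -2.43, SE 0.59, edgeR adjusted p = 0.0203), and the call was lost without K19 (adjusted p = 0.0622) and without WT 1, WT 2 or WT 4 (0.0649, 0.0624 and 0.0701). Of 4 tested smooth muscle and pericyte markers, 2 were higher and 1 lower, with sums of 1522 to 1846 CPM in the clones and 1258 to 1342 CPM in wild type. The fibroblast list had 1 of 2 tested genes higher and summed to 54.5 to 273 CPM in the clones and 4.22 to 4.33 CPM in wild type. The epithelial list had 3 of 4 higher (349 to 628 CPM in the clones and 243 to 262 CPM in wild type), and the leukocyte list had 1 of 2 higher (38.2 to 43.9 CPM in the clones and 20.2 to 24.3 CPM in wild type).

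In the authors' deposited table, 14 of the 55 tested guidance genes were called higher, 18 lower and 23 not called at the same threshold. Of the 12 higher and 16 lower edgeR calls, 11 and 16 were also called that way in the authors' deposited table. EFNA5, EPHB4, PLXNB2, PLXNB3 and SEMA6C were called in the authors' deposited table alone, and SEMA3B in the edgeR test alone.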

How the data were processed

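RNA of 6 CI-huVEC lines was made into stranded mRNA libraries, per the labels' protocols. The submitters' processing notes name STAR, HTSeq and the builds hg19 and GRCh37. For tool versions, annotation, strand setting and filters, nothing is given in the sources used here. The deposited values were raw counts and, beside them, FPKM for each gene and library, per the file headers. A table of the authors' comparison, per the file headers, gave a mean normalized signal per gene, a log2 fold change and a p-value with its adjusted value.

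Genes were tested on the counts with the edgeR quasi-likelihood F test (edgeR 4.0.16, R 4.3.3; two-sided, robust, TMM factors, filterByExpr at its minimum count of 10 and minimum total of 15). It kept 14548 genes. Benjamini-Hochberg values were taken over all of these, and calls made below 0.05. No value column lacked a sample. Libraries of a group differed beyond counting noise (chi-square per degree of freedom 19.8 to 69.7 for clones and 2.09 to 4.25 for wild type), so all 6 were kept. Means are ± SD of 3 libraries. Counting intervals are exact and at the 95% level. Intervals and floors cover counting error only. The fit was tested on simulated data, where it recovered 36% of 1.5-fold, 52% of 2-fold and 94% of 4-fold changes. A gene not called can therefore still differ.

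The genes, the 12 lists of partners and markers and the rule for named genes were chosen with earlier results of these data known. Values per library were given for called guidance genes with a mean of at least 1 CPM in a group and for 16 endothelial guidance genes, and up to 2 called genes in each direction were named per list, those with the smallest adjusted p. GC content was the median over a gene's GENCODE transcripts, found for 13290 tested genes (91.4%) and all 55 tested guidance genes. Its lowess trend (span 0.3) was removed per library as an offset. Promoters came from the RefSeq table, which held 71 of the 82 genes looked up, 41 with 1 start. Exons of 15 tested guidance genes overlap another gene on the opposite strand and those of 5 on the same strand, so these counts are uncertain. Alternatives were other scalings, filters, DESeq2 1.42.0, limma 3.58.1 and each library left out. Of the genes counted here, 1 is not reported by name.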

Additional observations from a re-analysis of the deposited data

How the results depend on the processing

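Each count was recomputed under 3 other scalings, 2 other filters, DESeq2, limma-voom, limma on FPKM, a GC-content correction and with each library left out. The counts over all genes and over the guidance genes stayed within 1.5 times the reported ones except with a library left out. Then 1370 to 4776 genes were called higher and 1650 to 4491 lower, against 2612 and 3025 with all libraries. Guidance genes called higher numbered 7 to 26, against 12, and those called lower 13 to 19, against 16. The highest counts came without K17 and the lowest without a wild-type library. The cause was not tested. The median log2 fold change of the guidance genes lay between -0.20 and 0.20 with a library left out.

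The 20 calls of EFNA4, EFNB1, EFNB3, EPHA4, EPHA5, FLRT2, NLGN2, NRXN3, NTN4, PLXNA4, ROBO1, ROBO2, ROBO4, SEMA3D, SEMA3F, SEMA4B, SEMA4G, SEMA6B, SLIT3 and SLITRK4 were kept in every alternative that tested them. Sign changes occurred 9 times, all in genes not called. With the GC trend removed they were EPHA2 (-0.16), EPHB2 (-0.019), EPHB4 (-0.046) and SEMA4C (-0.21). With a library left out the log2 fold change of EFNA1 lay between -0.27 and 0.063, that of NLGN3 between -0.23 and 0.20, and that of SEMA4A between -0.20 and 0.10. No paired analysis was possible because the knockout and wild-type lines share no replicate numbers. The coefficient of variation was 0.245 among clones and 0.0387 among wild-type lines, and a library left out of either group changes the pooled spread. Of the 17 guidance genes with at most 13 counts in any library, 4 were called when the filter was dropped and 1 by DESeq2.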
